A study of Mus musculus with 4 samples.

Results

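The levels of 10 genes of the integrated stress response were examined in mouse blastocysts, for mRNA by RNA-seq and for ribosome-protected fragments (RPF) by Ribo-seq. The genes were chosen by name, as mRNAs known for control by upstream open reading frames (uORFs) or as targets of the transcription factor ATF4, and were Atf4, Atf5, Ddit3, Ppp1r15a, Ppp1r15b, Chac1, Trib3, Asns, Psat1, and Sesn2. All 10 were listed in every library, among 20714 gene symbols listed in both assays. There were 2 replicate libraries for each assay and 4 in total. All embryos were labelled wild-type and untreated, and came from females aged 4 weeks mated with PWK/PhJ males. The protocol names the mothers C57BL/6J, whereas the strain label reads C57BL/6N x PWK. Embryos were taken at a cleavage stage, grown to blastocysts in KSOM medium in vitro, and freed of the zona pellucida, so the levels describe cultured hybrid embryos in 1 condition and no stress treatment was compared. RNA-seq used Smart-Seq2 on polyadenylated RNA, and Ribo-seq sequenced the mRNA pieces left under ribosomes after nuclease digestion. Nothing in the sample descriptions says that replicates came from separate pools of embryos, so p-values measure the spread between these libraries only, which may be technical.

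In the integrated stress response, kinases that sense unfolded protein, amino acid shortage, haem shortage, or double-stranded RNA phosphorylate the translation factor eIF2. General initiation then falls, while a few mRNAs with uORFs, Atf4 above all, are translated more. ATF4 protein switches on genes for amino acid synthesis and stress adaptation, and the phosphatase subunits encoded by Ppp1r15a and Ppp1r15b reverse the phosphorylation. In unstressed cells, ribosomes that translate the uORFs of Atf4 mostly fail to start at its main coding sequence. The question addressed here was how the RPF level on each coding sequence compared with the level of its mRNA, relative to other genes in blastocysts.

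The values were FPKM (fragment density scaled to gene length and library size), counted over transcripts in RNA-seq and over coding sequences in Ribo-seq. FPKM carries no read counts, but low values fell on steps of whole fragments, which implied totals of 5465000 and 5169000 fragments in the mRNA libraries and 532600 and 483200 in the RPF libraries. In RPF, 80.5% and 80.4% of low values lay within 0.1 of a whole fragment, and in mRNA 55.6% and 53.7% did. A total fixed in advance would give 20% by chance. The totals were chosen as the best fit to these same values, so the shares do not test them. Replicates had a Spearman correlation across genes of 0.940 for mRNA and 0.898 for RPF. Blastocyst markers, which include the trophectoderm genes Cdx2, Krt8, and Krt18, summed to 3152 and 2824 FPKM in mRNA and to 6483 and 6189 FPKM in RPF. Most of the mRNA sum came from Krt8 (1078 and 838 FPKM) and Krt18 (1757 and 1754 FPKM), so it says little of the other markers. Of the 12 markers, 8 had a mean of at least 1 FPKM in both assays. The others, Sox2, Gata4, Sox17, and Pdgfra, were at 0 to 1.36 FPKM in mRNA and at 12.3 to 37.1 FPKM in RPF. Oocyte markers summed to 0 to 1.92 FPKM over the 4 libraries, with 6 of 8 at 0 in all of them, and cumulus cell markers to 0 to 1.09 FPKM, with 7 of 8 at 0. Of 5 sperm markers 3 were at 0 in every library, and Prm2 was at 33.7 FPKM in RPF replicate 2 only.

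Start codons were read because ribosomes on a uORF are counted in a coding-sequence FPKM only where the uORF overlaps the coding sequence. They came from 1 annotated transcript per gene (GENCODE vM1 on NCBIM37, the assembly of mm9). It was chosen among those with a consensus coding sequence by annotation level and then by greatest length. Counts of uORFs hold for that transcript only. Of the 10 genes, 8 had an ATG upstream of the main one, and in 3 a uORF ran past the main start. Among 7250 tested genes with a consensus coding transcript the shares were 45.0% and 14.0%. Since some of the 10 genes were chosen for uORF control, this comparison cannot test an excess. Chac1 and Trib3 had no upstream ATG, and Ddit3 had 2 upstream ATGs in 1 reading frame. The start codons of the 3 transcription factors are printed 5′ to 3′ with the ATG in capitals, because they show which sites a scanning ribosome meets before the coding sequence.
Atf4, uORF of 36 codons (chr15:80085723-80085746, plus strand): cttttctctcATGgggcctttagg
Atf4, uORF of 3 codons (chr15:80086002-80086025, plus strand): tgcggccaccATGgcgtattagag
Atf4, uORF of 59 codons that overlaps the coding sequence: ggcctaagccATGgcgctcttcac
Atf4, main start (chr15:80086719-80086742, plus strand): gccccacaacATGaccgagatgag
Ddit3, uORF of 34 codons (chr10:126727875-126727898, plus strand): cgattatatcATGttgaagatgag
Ddit3, second ATG of that frame, 31 codons (chr10:126727884-126727907, plus strand): catgttgaagATGagcgggtggca
Ddit3, main start (chr10:126732387-126732410, plus strand): acgtgcagtcATGgcagctgagtc
Atf5, uORF of 3 codons (chr7:52071894-52071917, minus strand): cgcccgcgcaATGgctctgtagcc
Atf5, uORF of 58 codons that overlaps the coding sequence: tttcgccgccATGgagtcctccac
Atf5, main start (chr7:52070523-52070546, minus strand): tgtcacagccATGtcactcctggc
The overlapping uORFs of Atf4 and Atf5 ran over 83 and 56 bases of the coding sequence, and the windows of their start codons cross an exon junction, with the ATG beginning at base 80086111 of chromosome 15 and base 52071776 of chromosome 7. The overlapping uORF of Atf4 started 97 bases before the main ATG. Of the other genes, Ppp1r15a and Ppp1r15b each had 3 uORFs, Asns and Sesn2 each had 1, and Psat1 had 1 of 66 codons that overlapped its coding sequence.

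Atf4 (chr15:80085614-80087970, plus strand) encodes the transcription factor at the centre of the response. Its mRNA was at 113 and 172 FPKM in replicates 1 and 2, above 92.2% and 94.4% of tested genes, which were the 8327 genes whose mean reached 1 FPKM in mRNA and in RPF. Its RPF was at 86.1 and 63.3 FPKM, above 75.5% and 71.1% of them. Atf4 mRNA was among the most abundant in both libraries, and its RPF stood lower in the order of genes in both.

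Ddit3 (chr10:126727830-126733344, plus strand) encodes CHOP, a transcription factor associated with cell death after prolonged stress. Its mRNA was at 39.9 and 80.9 FPKM, above 82.2% and 89.5% of tested genes. Its RPF was at 24.7 and 6.79 FPKM, above 49.3% and 22% of them. Both RPF libraries were below both mRNA libraries in this order, and the RPF replicates differed more from each other than the mRNA replicates did. Atf5 (chr7:52067627-52072028, minus strand), a relative of Atf4 that also has a uORF of 3 codons ahead of an overlapping one, had little mRNA, at 0.910 and 0.607 FPKM. Its RPF was at 2.88 and 6.35 FPKM. With a mean mRNA of 0.758 FPKM, Atf5 was below the limit for testing.

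Ppp1r15a (chr7:52778286-52781638, minus strand) encodes GADD34, the stress-induced subunit that directs a phosphatase to eIF2. Its mRNA was at 4.89 and 1.45 FPKM and its RPF at 1.06 and 8.14 FPKM, so the replicates went opposite ways in the 2 assays. Ppp1r15b (chr1:135027720-135036377, plus strand) encodes CReP, the constitutive subunit for the same task. Its mRNA was at 8.77 and 9.65 FPKM, close to the middle of all tested genes, and its RPF at 42.5 and 14.2 FPKM. Within each library of either assay, Ppp1r15b was above Ppp1r15a.

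Among the ATF4 targets other than Ddit3, those that make amino acids were the highest in both assays. Asns (chr6:7625169-7643254, minus strand) encodes asparagine synthetase, with mRNA at 40.1 and 80.1 FPKM and RPF at 117 and 137 FPKM. Psat1 (chr19:15979168-16021827, minus strand) encodes an enzyme of serine synthesis, with mRNA at 63.7 and 100.5 FPKM and RPF at 249 and 295 FPKM. Both stood above 80.2% or more of tested genes in every library. The other targets were lower. Chac1 (chr2:119176965-119180117, plus strand), which encodes an enzyme that breaks down glutathione, had mRNA at 2.39 and 1.96 FPKM and RPF at 7.98 and 4.40 FPKM. Trib3 (chr2:152163158-152169768, minus strand), a pseudokinase that restrains ATF4 and CHOP, had mRNA at 4.34 and 13 FPKM and RPF at 4.34 and 12 FPKM. Sesn2 (chr4:132047947-132066416, minus strand), which signals low leucine to mTORC1, had mRNA at 2.39 and 1.81 FPKM and RPF at 19.6 and 18.3 FPKM. Sesn2 thus had mRNA in the range of Chac1 and RPF above it.

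**Figure D1:**
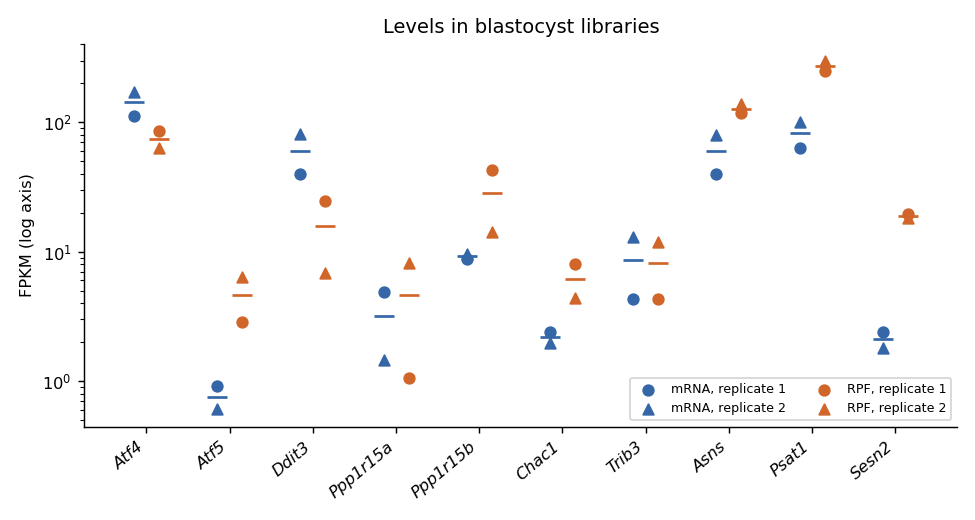
Level of each gene in FPKM on a log axis, with 1 point per library for mRNA and RPF. Atf4 is the highest in mRNA at 113 and 172 FPKM, and Psat1 the highest in RPF at 249 and 295 FPKM.

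By mean mRNA level the order was Atf4 (142.5 FPKM), Psat1 (82.1), Ddit3 (60.4), Asns (60.1), Ppp1r15b (9.21), Trib3 (8.68), Ppp1r15a (3.17), Chac1 (2.17), Sesn2 (2.10), and Atf5 (0.758). The libraries of neighbours did not overlap between Atf4 and Psat1, between Asns and Ppp1r15b, and between Sesn2 and Atf5, and all other neighbours overlapped. By mean RPF level the order began with Psat1 (272 FPKM), Asns (127), and Atf4 (74.7). These 3 were separated from each other and from Ppp1r15b (28.3) without overlap. Below it, Sesn2 (18.9), Ddit3 (15.7), Trib3 (8.14), Chac1 (6.19), Atf5 (4.62), and Ppp1r15a (4.6) overlapped with their neighbours. From mRNA to RPF, Atf4 went from place 1 to 3, Ddit3 from 3 to 6, Trib3 from 6 to 7, and Ppp1r15a from 7 to 10. Sesn2 went from 9 to 5, Asns from 4 to 2, and Psat1, Ppp1r15b, and Atf5 each moved up by 1, while Chac1 kept place 8. Since many neighbours overlapped, several of these moves are within the spread of the libraries.

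The RPF level was then compared with the mRNA level across all tested genes with limma on log2(FPKM+1), after each library was centred on its median, so that a difference is relative to the median level in each assay. A gene was called when its Benjamini-Hochberg adjusted p was under 0.05 and its difference reached 1 log2 unit in size. Atf4 was the 1 gene of the 9 tested that was called, and it was lower in RPF, by 2.41 on the log2 scale (SE 0.34, adjusted p = 0.0340), or 5.31-fold. Of all tested genes 12% were called, 6.65% higher and 5.31% lower in RPF, so a count of 1 among 9 says nothing of the genes as a group. No gene of the 9 was called higher, and at an unadjusted p under 0.05 there were 1 higher (Sesn2) and 2 lower (Atf4 and Ddit3). Over all tested genes, 3026 of 8327 had an unadjusted p under 0.05 in limma in either direction, so these counts do not set the genes apart. The difference of Atf4 was below those of all but 3.35% of tested genes. Its direction held under all 12 alternatives, at -2.71 to -0.54. The call was lost under 6 of these, among them a pseudocount of 0.1 (adjusted p = 0.0514), no centring (-0.91, adjusted p = 0.0990), no filter on low values (-0.54, adjusted p = 0.261), and leaving out mRNA replicate 1 or 2 (adjusted p = 0.310 and 0.329).

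Ddit3 had the most negative difference of the 9 genes, at -3.53 (SE 0.71), or 11.6-fold lower in RPF. Its adjusted p of 0.0527 in limma missed the threshold, although 0.480% of tested genes had a lower difference. It passed among genes of at least 5 FPKM (adjusted p = 0.0276) and with quantile normalization (adjusted p = 0.0419). Fits with 1 RPF library left measure no RPF spread, so only their differences are given. Without RPF replicate 1 Ddit3 was at -4.35 and without RPF replicate 2 at -2.72. Under the other 8 alternatives it missed the threshold, among them a pseudocount of 0.1 (adjusted p = 0.0780), no centring (adjusted p = 0.0848), no filter (adjusted p = 0.202), and leaving out mRNA replicate 1 or 2 (adjusted p = 0.310 and 0.330). Sesn2 lay on the other side, at 1.19 (SE 0.25, adjusted p = 0.0589), or 2.28-fold higher in RPF, and above 88.0% of tested genes. It did not pass, but did so with quantile normalization (1.53, adjusted p = 0.0439), without centring (2.69, adjusted p = 0.00626), and without the filter (3.05, adjusted p = 0.00362). Without RPF replicate 1 or 2 it was at 1.18 and 1.19, in fits that measure no RPF spread. It missed under the others, among them a pseudocount of 0.1 (adjusted p = 0.0645) and leaving out mRNA replicate 1 or 2 (adjusted p = 0.322 and 0.369).

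The other 6 genes were further from the threshold. Trib3 had a difference of -1.56 (SE 0.72, adjusted p = 0.20 in limma) and Ppp1r15a of -1.31 (SE 0.93, adjusted p = 0.364). Both depended on the RPF library. Without RPF replicate 2 they were at -2.24 and -2.43, and without RPF replicate 1 at -0.88 and -0.19. A fit with 1 RPF library left measures no RPF spread, so only these differences are given. The remaining values were -0.36 for Chac1, -0.35 for Asns, -0.17 for Ppp1r15b, and 0.25 for Psat1, with limma adjusted p-values of 0.471 to 0.842. The median of the 9 genes was -0.36, beside -0.24 over all tested genes. After centring, 3 genes (Atf4, Ddit3, and Trib3) had both RPF values below both mRNA values, 1 (Sesn2) had both above, and 5 overlapped. Of all tested genes, 38.7% lay below without overlap and 28.8% above. The direction of a difference depended on the scaling, because the median difference over all tested genes was -0.24 with centring and 1.26 without. Of the calls over all genes, 55.6% were higher in RPF with centring and 98.4% without. Atf4, Ddit3, and Trib3 stayed negative without centring and with quantile normalization, whereas Ppp1r15a, Ppp1r15b, Chac1, and Asns were positive without centring.

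**Figure D2:**
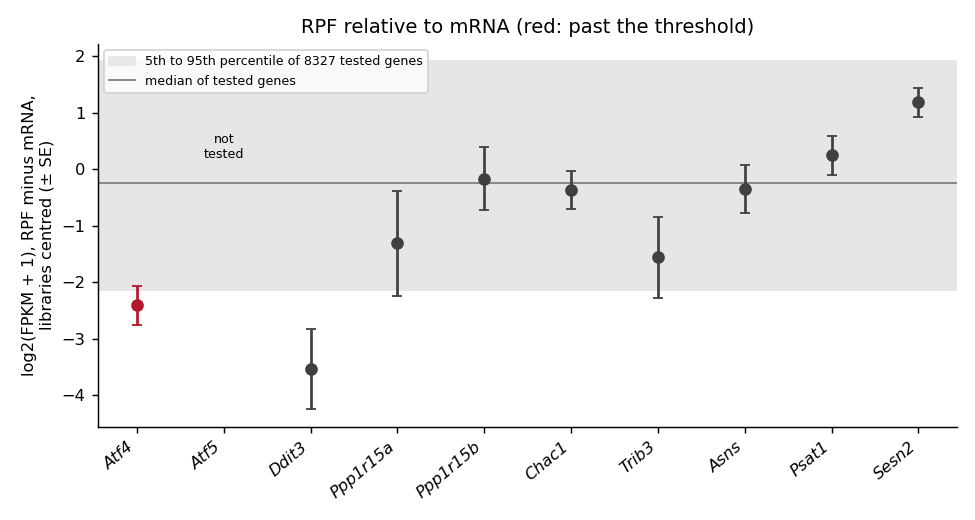
Log2 difference of RPF minus mRNA for the 9 tested genes, with the standard error from limma as bars and the called gene in red (Atf5 was not tested), beside the median and the range from the 5th to the 95th percentile of all tested genes. Atf4 at -2.41 and Ddit3 at -3.53 lie below the 5th percentile of -2.15, and the other 7 genes lie within the range.

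The footprints behind each RPF value set how precisely it was known, and 5 genes rested on 7 footprints or fewer in both libraries. Intervals are exact 95% Poisson intervals and cover counting error only. Atf4 had 39 footprints on its coding sequence in replicate 1 (27.7 to 53.3) and 26 in replicate 2 (17.0 to 38.1). Had its RPF stood as far from the library median as its mRNA did, 185 and 158 would have been counted. Both intervals lie below these values. Ddit3 had 4 footprints (1.09 to 10.2) and 1 (0.0253 to 5.57), against 27.4 and 23.4 by the same reckoning. Its intervals too lie below, but the value of replicate 2 was 1 footprint, worth 6.75 FPKM, and below the floor of 3 footprints at 20.3 FPKM. The fold change of Ddit3 is therefore loosely known.

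Sesn2 had 13 footprints (6.92 to 22.2) and 11 (5.49 to 19.7), against 5.30 and 4.50, and both intervals lie above. Asns had 93 and 99 footprints and Psat1 121 and 130, the highest of the 10 genes. For Asns 132 and 113 would have been counted at the mRNA position, and for Psat1 114 and 97.8. The interval of Asns ended below that value in replicate 1 and held it in replicate 2, and that of Psat1 held it in replicate 1 and began above it in replicate 2. Ppp1r15b had 43 footprints (31.1 to 57.9) and 13 (6.92 to 22.2) against 29.0 and 24.8, so its replicates lay on opposite sides.

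The remaining genes had few footprints. Trib3 had 2 (0.242 to 7.22) and 5 (1.62 to 11.7), against 11.2 and 9.52. Ppp1r15a had 1 (0.0253 to 5.57) and 7 (2.81 to 14.4), against 9.52 and 8.10. For both genes the interval lay below the value in replicate 1 and held it in replicate 2. Chac1 had 2 and 1 footprints, and Atf5 1 and 2. Both genes were below 3 footprints in both libraries, against 2.07 and 1.76 for Chac1 and 1.43 and 1.20 for Atf5. The intervals held these values, and a lower RPF could not have been detected at this depth. The mRNA libraries were deeper, with about 938 and 1358 fragments for Atf4 and 150 and 289 for Ddit3, but about 8.03 and 5.06 for Atf5.

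**Figure D3:**
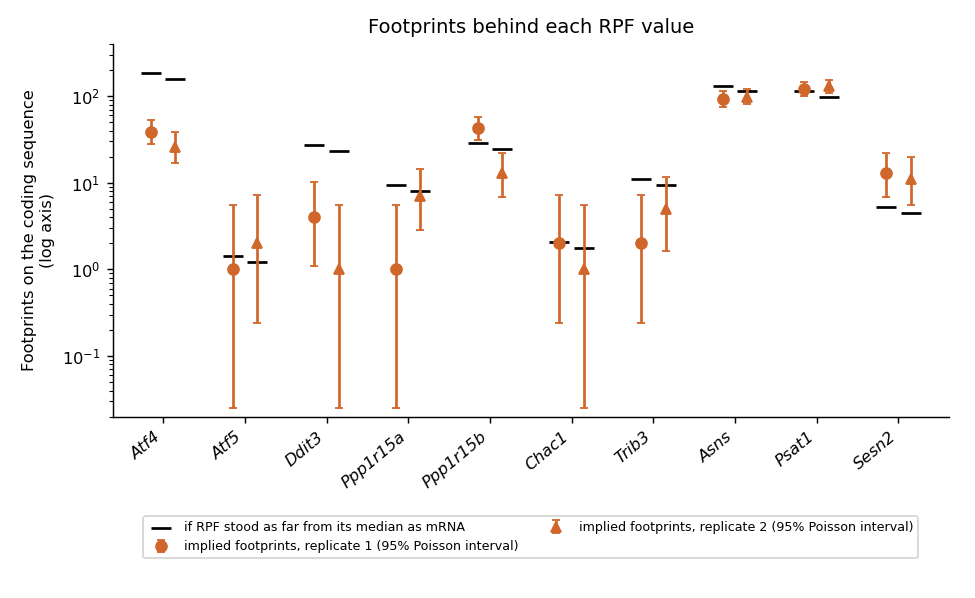
Whole footprints implied on the coding sequence of each gene in both RPF replicates on a log axis, with exact 95% Poisson intervals, and as black ticks the footprints if RPF stood as far from the library median as mRNA. Atf4 at 39 and 26 lies below its ticks at 185 and 158, and Sesn2 at 13 and 11 lies above its ticks at 5.30 and 4.50.

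The replicates were compared within each assay, since several of the genes differed between the mRNA libraries. Replicate 2 was higher in mRNA for 6 of the 10 genes, and for 4472 of all 8327 tested genes. It was 3.0-fold for Trib3, 2.03-fold for Ddit3, 2.0-fold for Asns, 1.58-fold for Psat1, 1.53-fold for Atf4, and 1.10-fold for Ppp1r15b. Of these 6, all but Trib3, with about 43.3 and 123 mRNA fragments, rest on about 150 or more in each library. On the log2(FPKM+1) scale, Trib3, Ddit3, and Asns lay above the 99.3, 97.4, and 97.2 percentiles of this replicate difference over tested genes. Ppp1r15a was lower in replicate 2, at 0.296 of replicate 1, with about 57.0 and 16.0 fragments. The median log2 difference of replicate 2 from replicate 1 was 0.61 over the 9 tested genes and 0.04 over all tested genes. Over the 10 lists of the wider pathway, the same median ran from -0.23 (relatives of the genes) to 0.63 (partners of ATF4). Over ATF4 targets it was 0.56 for the 3 tested genes of amino acid transport, 0.29 for stress response, 0.21 for tRNA charging, and 0.16 for amino acid synthesis, and it was 0.02 over the XBP1 and ATF6 branches. Of the 8 tested blastocyst markers, 1 had more mRNA in replicate 2 (Eomes, 2.09-fold) and the others less, with a median of -0.21. Nanog and Pou5f1, of the inner cell mass, were 2.48-fold and 2.46-fold lower in mRNA but at 1.65 and 1.04 of replicate 1 in RPF, and Cdx2 mRNA was at 0.973 of replicate 1. In such bulk libraries, fewer cells of a type and less RNA per cell cannot be told apart, and the part of cell composition in the replicate difference was not tested. In RPF, 5 genes were higher and 5 lower in replicate 2, with Asns at 1.17-fold, Psat1 at 1.19-fold, Sesn2 at 0.933, and Ddit3 at 0.276 of replicate 1. Of all 8327 tested genes, 3822 were higher in RPF replicate 2.

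**Figure D4:**
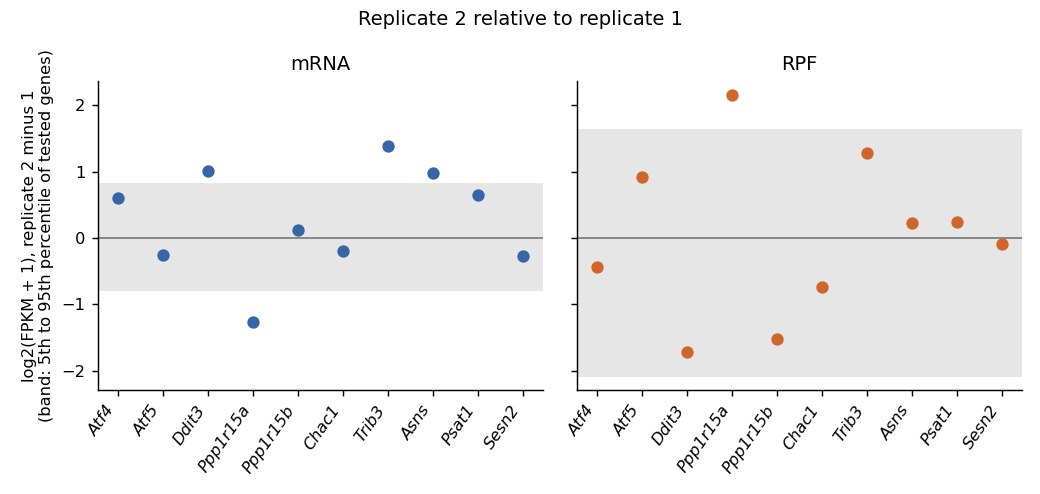
Difference of replicate 2 minus replicate 1 on the log2(FPKM+1) scale for each of the 10 genes, with mRNA on the left and RPF on the right, and a band from the 5th to the 95th percentile of tested genes. In mRNA, Trib3, Ddit3, and Asns lie above the band and Ppp1r15a below it, and in RPF only Ppp1r15a lies outside it.

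ATF4 binds, with C/EBP partners, to a composite element in the control regions of its targets, and the sequence TGATGNAA, or TTNCATCA on the other strand, was searched on both strands of promoters of 300 bases (250 before to 50 after the transcription start) from RefSeq on GRCm38.p6. It was found in 3 of 11 promoters, which belonged to the 9 genes in the table, and in 3.97% of all 32851 promoters. Since some of the genes were chosen as ATF4 targets, this comparison cannot test an excess. The 3 matches are printed 5′ to 3′ with the match in capitals, as they show where the targets share letters.
Chac1 (chr2:119351038-119351067, plus strand): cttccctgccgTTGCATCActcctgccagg
Trib3 (chr2:152344028-152344057, minus strand): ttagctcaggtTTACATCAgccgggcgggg
Asns (chr6:7693214-7693243, minus strand): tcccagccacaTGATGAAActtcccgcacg
These 3 targets differed widely in level, from Chac1 with mRNA at 2.39 and 1.96 FPKM to Asns at 40.1 and 80.1 FPKM. A match is a description of the letters in the window and no evidence of binding.

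The rest of the pathway was described with 10 lists of 108 genes, of which 85 were tested by the same limma fit. Of these, 7 were called higher and 3 lower in RPF, and over all tested genes the shares were 6.65% and 5.31%. All 10 calls were lost without mRNA replicate 1 or 2, as were those of all tested genes. With a pseudocount of 0.1, the limma adjusted p also missed the threshold for Dnajc3 (0.0541), Cebpa (0.0601), Map1lc3b (0.0533), Gcn1 (0.0516), Ppp1ca (0.0610), and Ifrd1 (0.0624). Among the eIF2 kinases and their regulators, 1 of 8 was higher and 1 lower, with a median of -0.14. Dnajc3, a chaperone that inhibits the kinases PERK and PKR, was higher in RPF, with mRNA at 3.11 and 3.75 FPKM and RPF at 34.2 and 34.5 FPKM, a difference of 1.5 (SE 0.25, adjusted p = 0.0410). Gcn1, the activator of the amino acid sensor GCN2, was lower, at -1.74 (SE 0.26, adjusted p = 0.0365), but was at 0.13 without the filter on low values. Eif2ak1, the haem-sensing kinase, had mRNA at 11.1 and 17.0 FPKM and RPF at 28.8 and 41.0 FPKM and was not called.

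Of 14 genes for eIF2, its exchange factor eIF2B, and the eIF2 phosphatase, 2 were higher and 4 lower at an unadjusted p under 0.05 in limma. After adjustment, 0 were called higher and 1 lower. The lower one was Ppp1ca, a catalytic subunit that works with the Ppp1r15 proteins, at -1.38 (SE 0.25, adjusted p = 0.0472), with mRNA at 256 and 307 FPKM and RPF at 320 and 291 FPKM. It was positive without centring (0.12) and without the filter on low values (0.49). The other catalytic subunits of the list went the other way and were not called in limma. Ppp1cb was at 1.53 (adjusted p = 0.0515) and Ppp1cc at 0.425 (adjusted p = 0.436). Eif2s2, the beta subunit of eIF2, was the most abundant of the list, with mRNA at 756 and 702 FPKM and RPF at 3039 and 2786 FPKM, and was not called (0.49, adjusted p = 0.215).

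Partners and relatives of ATF4 had 2 of 9 genes called higher and 0 lower (0 at an unadjusted p under 0.05 in limma), with a median of 0.60. Cebpg, a C/EBP partner of ATF4, had mRNA at 2.62 and 3.46 FPKM and RPF at 113 and 82.7 FPKM, and its difference was 3.10 (SE 0.28, adjusted p = 0.0225). Cebpa was also called higher, at 2.35 (SE 0.37, adjusted p = 0.0383). Nupr1, a stress-induced cofactor, had mRNA at 10.5 and 27.9 FPKM and RPF at 206 and 492 FPKM, and missed the threshold (2.63, adjusted p = 0.0820). Of the 9 tested partners, 3 lay below the median of all tested genes, as Atf4 did (Atf3 at -0.87, Nfe2l2 at -0.55, and Creb1 at -0.41, named here because of their values).

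A list of 6 other mRNAs known for uORF control is not a full set of such mRNAs. Of its 5 tested genes, 0 were called higher (0 at an unadjusted p under 0.05 in limma) and 1 lower. It shared no gene with the other lists, so Cebpg and Cebpa, called higher, were counted only among the partners of ATF4. Ifrd1, a transcriptional coregulator, was lower at -1.74 (SE 0.31, adjusted p = 0.0462), with mRNA at 21.4 and 31.9 FPKM and RPF at 24.4 and 19.8 FPKM. Its call was lost under 7 of 12 alternatives, and under 1 of these, without the filter on low values, its sign turned as well (0.12). Slc35a4, whose mRNA carries a long uORF and which is named here because of its values, had mRNA at 27.7 and 28.9 FPKM. It was listed at 0 in RPF in both replicates and was not tested. On its coding sequence of 975 bases, 34.9 and 29.8 footprints would have been counted at the position of its mRNA, and the floor of 3 footprints was 7.27 and 8.02 FPKM.

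Among ATF4 targets, 10 of 12 genes for amino acid and one-carbon synthesis, 3 of 9 for amino acid transport, and 12 of 12 for tRNA charging were tested. The rest were below the limit for testing. None of the tested genes of these lists was called in either direction in limma. At an unadjusted p under 0.05 these held 0, 1, and 1 higher and 0, 0, and 1 lower. Their medians were -0.11, 0.44, and -0.19. Of 15 stress response targets only 7 reached the limit for testing. Of these, 2 were called higher and 0 lower (0 at an unadjusted p under 0.05 in limma), beside 6.65% and 5.31% of all tested genes. Ddit4, an inhibitor of mTORC1 as Sesn2 is, had mRNA at 5.88 and 7.63 FPKM and RPF at 108 and 106 FPKM (2.30, SE 0.26, adjusted p = 0.0265). Map1lc3b, the autophagy protein LC3B, was higher at 1.89 (SE 0.26, adjusted p = 0.0331). The 6 tested relatives of the 10 genes, such as Trib1 and Atf1, held 0 calls in limma (1 higher and 0 lower at an unadjusted p under 0.05) and had a median of -0.31.

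**Figure D5:**
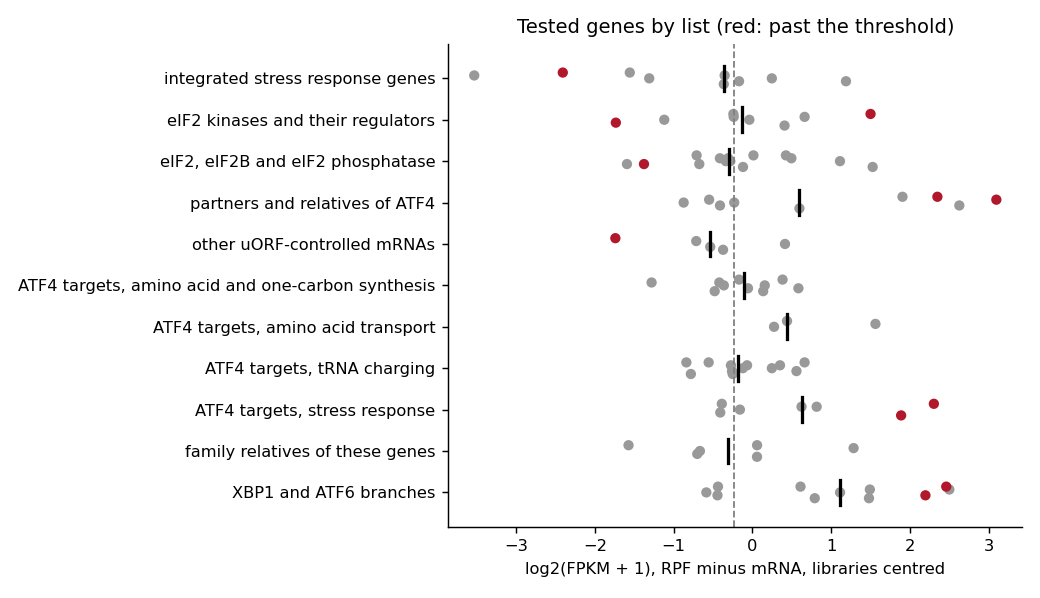
Log2 difference of RPF minus mRNA for every tested gene of the 10 integrated stress response genes and of the 10 lists of the wider pathway, with called genes in red, list medians as black ticks, and the median of all tested genes as a dashed line. Cebpg at 3.10 and Calr at 2.46 are the highest called genes.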

How the data were processed

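RNA-seq and Ribo-seq of blastocysts were used, with 2 libraries each. The authors deposited FPKM per gene, made with Cufflinks 2.2.1 on mm9 over transcripts for RNA-seq and over coding sequences for Ribo-seq, after STAR 2.5.3a mapping with up to 20 places per read. Reads shared by near-identical copies and reads on uORFs can therefore affect or be missing from a value. Where a symbol had several rows, the highest value was taken.

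Levels were log2(FPKM+1), which understates the change of low genes. Differences were fitted with limma 3.58.1 (R 4.3.3) over 8327 genes and adjusted by the Benjamini-Hochberg method, and other steps used Python 3.11.15. Whole footprints were recovered with the effective length of Cufflinks (fragment mean 200, SD 80 bases). It takes a larger share from short coding sequences, which raises their RPF FPKM. In RPF replicate 1, 1 footprint was worth 6.12 FPKM on the 507 bases of Ddit3 and 0.992 FPKM on the 2094 bases of Ppp1r15b. The part of coding length in the RPF-to-mRNA differences was not tested. The fit and the depth estimate were tested on simulated data.

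The genes, lists, and tests were chosen with earlier results of these data known. Beside the 10 genes, each list gave up to 3 tested genes of highest RPF and up to 3 called genes in each direction, and for Atf4, Asns, and Ppp1r15b the 3 nearest genes were named. The settings varied were the pseudocount, the low-value filter, centring, quantile normalization, summed symbols, the replicate block, and each library left out. Labels of replicates are the only link between assays, and the correlation of replicate differences in mRNA and RPF was 0.00994 over 8327 genes.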

Additional observations from a re-analysis of the deposited data

How the results depend on the processing

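Depth limited the genes with few footprints, of which 5 of the 10 had 7 or fewer in both RPF libraries, and the design of 2 libraries per assay limited every call. Atf4 kept its direction under all 12 alternatives and its call under 6. Sesn2 and Ddit3 kept their direction under all that were run. A fit without 1 library assumed that the lone library of that assay varied like the other assay, and calls over all genes then ranged from 0 to 1268 higher and from 0 to 1987 lower. They were 0 in both directions without either mRNA library (1293 and 1250 genes at an unadjusted p under 0.05 in limma).

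Against 554 genes higher and 442 lower in RPF, 308 and 154 were called with a pseudocount of 0.1, 5330 and 158 without the filter on low values, 4113 and 65 without centring, and 620 and 751 among genes of at least 5 FPKM in each assay. The share of calls that were higher was 66.7% with the pseudocount of 0.1, 97.1% without the filter, and 45.2% among genes of at least 5 FPKM. Without the filter the median difference over all genes was 0.36. Against 0 of the 10 genes higher, there were 4 without the filter, 2 without centring, 1 with quantile normalization, and 0 to 1 without 1 library. Against 1 lower, there were 0 with a pseudocount of 0.1, 0 without the filter, 0 without centring, 2 at 5 FPKM, 2 with quantile normalization, and 0 to 4 without 1 library. In the pathway lists, against 7 higher there were 4 with a pseudocount of 0.1, 67 without the filter, 57 without centring, and 0 to 17 without 1 library. Against 3 lower there were 0, 1, and 0 under these settings, and 0 to 10 without 1 library. The causes were not tested.

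With the replicate number as a block (the replicate block), 0 genes were called higher and 0 lower over all genes, over the 10 genes, and over the pathway lists, with 2594 genes at an unadjusted p under 0.05 in limma. Atf4 was at -2.41 with a limma adjusted p of 0.110. The number is the only stated link between same-numbered libraries, and whether they came from the same embryos is not stated. The replicate differences in mRNA and RPF had a correlation of 0.00994. This cannot settle whether the libraries were paired, because the RPF differences also hold counting error.

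Some differences turned sign. Without centring they were 0.19 for Ppp1r15a, 1.33 for Ppp1r15b, 1.137 for Chac1, 1.15 for Asns, 1.26 for Eif2ak1, 0.12 for Ppp1ca, 0.79 for Eprs, 1.138 for Got1, 1.44 for Cbs, 1.23 for Gars, 1.34 for Eif4ebp1, and 0.80 for Atf1. Without the filter they were 0.55 for Ppp1r15a, 1.70 for Ppp1r15b, 1.5 for Chac1, 0.31 for Trib3, 1.51 for Asns, 1.62 for Eif2ak1, 0.13 for Gcn1, 0.49 for Ppp1ca, 1.15 for Eprs, 0.12 for Ifrd1, 1.5 for Got1, 1.81 for Cbs, 1.59 for Gars, 1.71 for Eif4ebp1, and 1.17 for Atf1. With quantile normalization they were 0.20 for Chac1, -0.028 for Psat1, -0.26 for Eif2s1, and -0.054 for Nars. Eif2s1 was at -0.0799 with a pseudocount of 0.1 and at -0.035 among genes of at least 5 FPKM. Without 1 library the differences ranged from -0.84 to 0.13 for Asns, -0.89 to 0.55 for Ppp1r15b, -0.0725 to 0.56 for Psat1, -2.05 to 0.64 for Atf1, -0.43 to 0.54 for Atf7, -0.12 to 0.0048 for Cbs, -0.53 to 0.048 for Eif2ak1, -0.12 to 0.15 for Eif2s1, -0.66 to 0.34 for Eif4ebp1, -0.13 to 0.67 for Slc38a2, and -0.50 to 1.32 for Slc7a1.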

Other observations

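The XBP1 and ATF6 branches, which raise chaperones of the endoplasmic reticulum beside the integrated stress response, had 2 of 11 tested genes called higher and 0 lower in RPF, beside 6.65% and 5.31% of all tested genes. At an unadjusted p under 0.05 in limma 7 were higher and 0 lower, and 3026 of all 8327 tested genes were in either direction. The median difference was 1.11, beside -0.24 over all tested genes. Both calls were lost without mRNA replicate 1 or 2. Calr, a calcium-binding chaperone, had mRNA at 92.4 and 86.8 FPKM and RPF at 1385 and 1440 FPKM, a difference of 2.46 (SE 0.24, limma adjusted p = 0.0232). Hyou1, a large chaperone, was higher at 2.2 (SE 0.25, limma adjusted p = 0.0271). Hspa5, the chaperone BiP, had RPF at 407 and 426 FPKM and mRNA at 42.0 and 62.9 FPKM and did not pass (1.49, limma adjusted p = 0.0561).

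Of the tested genes with a consensus coding transcript, those with at least 1 upstream ATG had a median difference of -0.40 and those with none of -0.07. The 1014 with a uORF that overlapped the main start had a median of -0.45, and the 822 with 3 or more uORFs of -0.58. These are descriptions of groups of genes, given without their spread. Of the tested genes among the 10 with an upstream ATG, Atf4 (-2.41), Ddit3 (-3.53), and Ppp1r15a (-1.31) lay below all of these medians. Asns (-0.35), Ppp1r15b (-0.17), Psat1 (0.25), and Sesn2 (1.19) lay above those of the groups with an upstream ATG. A part of uORFs in these differences was not tested.

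Over the 4 levels on the log2(FPKM+1) scale, the tested genes nearest to Atf4 were Mob1a, Tmem147, and Cdca3, at distances of 0.535, 0.569, and 0.75. Nearest to Asns were Scpep1, Mad2l1, and Scnm1, at 0.420 to 0.491, and nearest to Ppp1r15b were Actr6, Ubl3, and Rprd1b, at 0.285 to 0.341.

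Highest in RPF among the tested genes of the other lists were Impact and Eif2ak1 of the kinase regulators, Eif2s1 and Eif2s3x of eIF2, Eprs and Slc7a1 of the uORF-controlled mRNAs, Got1, Cbs, and Mthfd2 of amino acid synthesis, Slc3a2, Slc7a5, and Slc38a2 of transport, Nars, Gars, and Sars of tRNA charging, Ndrg1 and Eif4ebp1 of the stress targets, Trib1, Atf1, and Atf7 of the relatives, and Hsp90b1 of the ATF6 branch. None of these was called, with differences from -0.71 (Eprs) to 1.56 (Slc7a5). The nearest to the threshold were Eif2s3x at 1.11 (limma adjusted p = 0.0595) and Slc7a5 (limma adjusted p = 0.0684).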
